A study of Caenorhabditis elegans with 27 samples.

Results

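The saposin-like genes of Caenorhabditis elegans, named spp, encode small proteins built on the fold of the mammalian saposins. The 10 genes described here are spp-1, spp-2, spp-3, spp-5, spp-8, spp-9, spp-10, spp-12, spp-14 and spp-18, taken from the array annotation by symbol. All 10 have a probe set, 13 in all, out of 22548 probe sets on the array after the controls were set aside. A further 14 probe sets carry other spp symbols. The 10 genes were listed with results of these arrays already known, so their own changes are given as measurements and support nothing. No p-value is printed for them. Where they are called changed, the call only marks a threshold and is a description.

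Worms of strain GE24, which carry the pha-1(e2123) allele in every group, controls included, were raised on plates with HuminFeed (HF), which is a preparation of humic substances, or HuminFeed-Hydroquinone (HF-HQ). The doses were 0, 0.2 and 2.0 mM of dissolved organic carbon. HF worms were harvested at 3 or at 11 days and HF-HQ worms at 3 days, which gives 9 groups of 3 arrays of whole animals. pha-1(e2123) is a temperature-sensitive allele whose embryos fail at the restrictive temperature, and after an earlier period at 15 °C the synchronised larvae were raised at 25 °C. The design text calls the harvested worms adults, while an age tag on the samples reads L4 larvae. Conditions were cultured in triplicate. Nothing states that the cultures had separate parents, so the spread between arrays may in part be technical.

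Saposins in mammals are cofactors that help lysosomal enzymes break down sphingolipids. Many nematode members of the family act outside the lysosome: caenopores, the products of spp-1 and spp-5, permeabilise bacterial membranes in the gut lumen and resemble the amoebapores of Entamoeba. Because worms feed on live bacteria, these proteins serve both digestion and defence, and spp-1 is also a known target of the insulin-regulated factor DAF-16.

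Levels are the authors' log2 values per probe set, each 1 unit being a doubling, and a value over 5 in at least 3 arrays was needed for a test. Of the 13 listed probe sets 12 were tested, beside 11102 in all. The second spp-1 probe set, 178179_at, stayed between 2.40 and 2.47 in all 27 arrays and was not tested. The spp-12 probe set passed through 15 arrays, none of them from HF-HQ worms, and the spp-9 probe set through 6 arrays, all from treated worms at 11 days. Those 2 probe sets therefore had to differ between groups. Of the 12, 9 are annotated to 1 symbol. One probe set reads spp-2 and spp-3 together, one reads spp-5 with T08A9.13 and one reads spp-9 with spp-21, so none of these signals can be assigned to a single gene. In the WBcel235 annotation spp-3, spp-2, spp-6, spp-4 and spp-5 follow each other with 0 protein-coding genes between them, as do spp-9 and spp-21. Levels of different probe sets depend on the probes and are not compared with each other.

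The 3 experiments stood apart as wholes. The 75th percentile of an array lay between 9.28 and 9.39 in HF-HQ worms, against 7.45 to 7.53 in HF worms at 3 days and 7.35 to 7.42 at 11 days. Treated groups are therefore set against the control of their own experiment, and comparisons between experiments are also given after quantile normalization of all 27 arrays. The sperm markers differed as well: all 9 on the array were under log2 5 in every HF-HQ array and every 11-day array, whereas 5 of 9 were in the 3-day HF controls. A probe set is called changed where the adjusted p of a model over all 11102 probe sets (limma) is under 0.05.

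**Figure D1:**
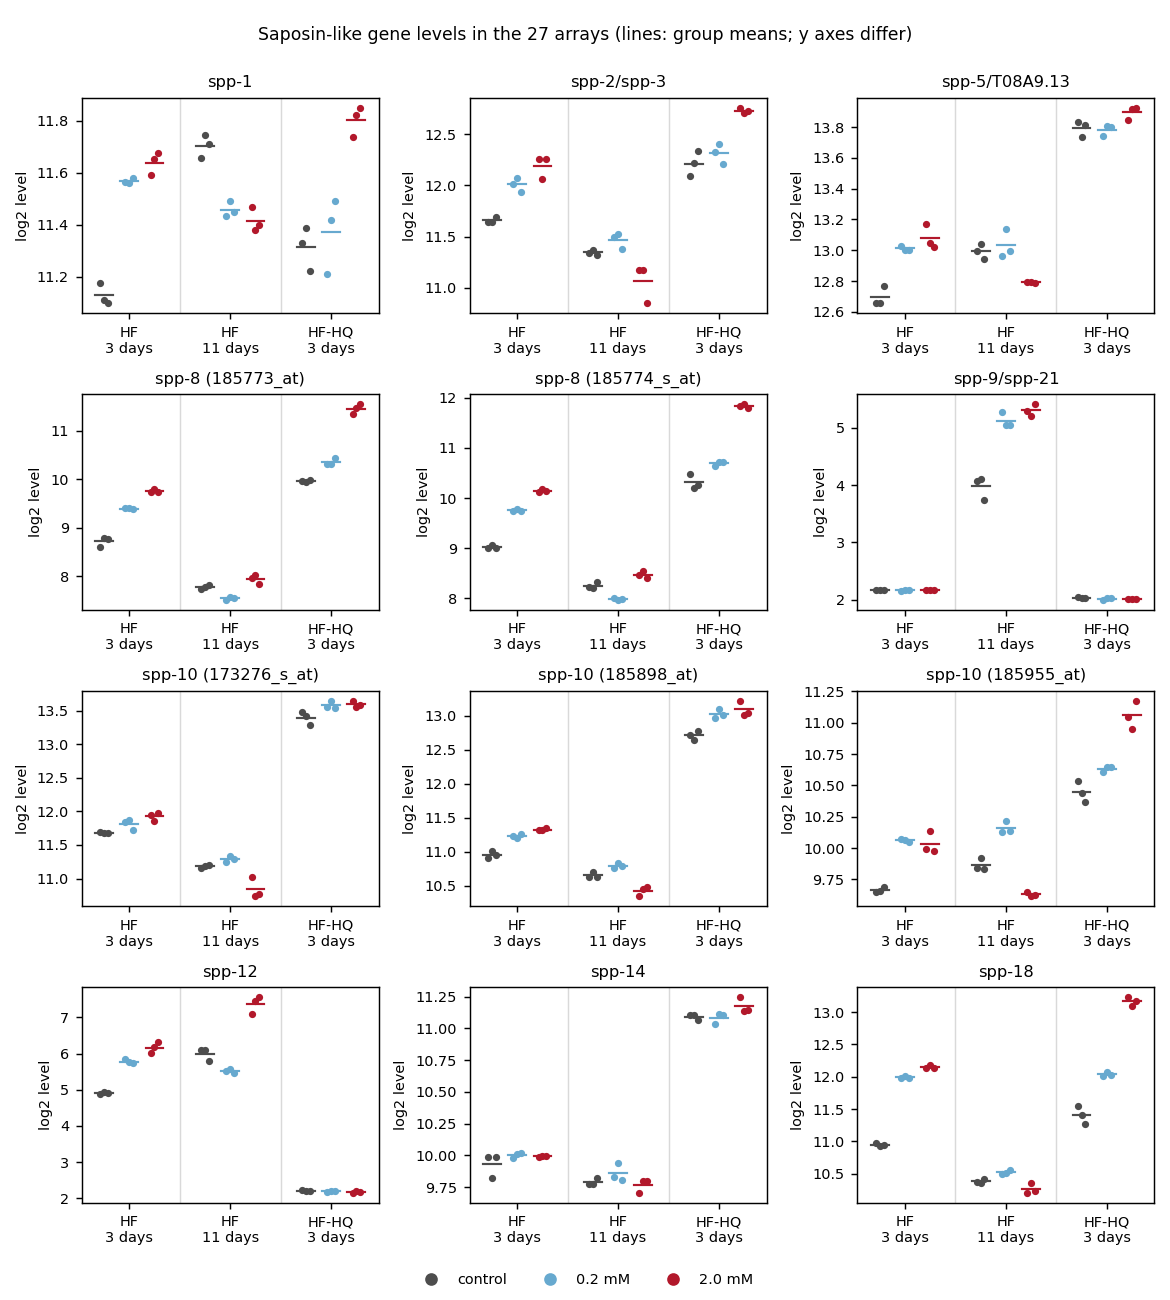
Log2 level of the 12 tested listed probe sets in each of the 27 arrays, by experiment and dose. Points are arrays and lines are group means, and the y axes differ between panels. The spp-18 and spp-8 arrays climb with dose in both 3-day experiments, spp-12 lies near 2.2 in all HF-HQ arrays, and spp-9/spp-21 exceeds 5 only in treated worms at 11 days.

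At 3 days most of the listed genes were higher in worms grown with HF. At 0.2 mM 9 of the 12 probe sets were called higher and 0 lower, where 58.9% of all tested probe sets were called, 2887 of the 11102 higher and 3650 lower. The median change of the 12 was 0.37, against -0.03 over all tested probe sets. At 2.0 mM 10 were called higher and 0 lower, where 60.9% of all probe sets were called, 3106 higher and 3650 lower, and the median was 0.45 against -0.02. Between 0.2 and 2.0 mM 4 were called higher and 0 lower, beside 13.4% and 7.65% of all. Nothing is read from these counts, since the list was drawn up with them known.

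spp-18 had one of the largest changes. Its control arrays at 3 days read 10.97, 10.93 and 10.94. The 0.2 mM HF arrays read 11.98, 12.02 and 11.98, and the 2.0 mM arrays read 12.14, 12.19 and 12.14. The 3 dose groups did not overlap, and most of the rise was already present at the lower dose. The log2 change was 1.04 ± 0.06 (SE, n = 3 arrays per group, as for all changes here) at 0.2 mM, a 2.06-fold difference. At 2.0 mM it was 1.21 ± 0.06, a 2.31-fold difference. The further step of 0.17 ± 0.06 from 0.2 to 2.0 mM was called, but not after any one of the 6 arrays was left out, when it lay between 0.15 and 0.18.

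spp-8 lies close to spp-10 in the genome, with 1 protein-coding gene between them, and is read by 2 probe sets that tracked each other. On probe set 185774_s_at the 3-day controls read 9.00, 9.05 and 9.00. The 0.2 mM HF arrays read 9.73, 9.79 and 9.73, and the 2.0 mM arrays read 10.11, 10.17 and 10.15. The doses were ordered without overlap. The changes were 0.73 ± 0.06 and 1.13 ± 0.06, the latter 2.18-fold, and the second probe set gave 0.68 ± 0.06 and 1.04 ± 0.06. Unlike the small dose step of spp-18, the steps of 0.39 ± 0.06 and 0.36 ± 0.06 from 0.2 to 2.0 mM stayed called with each array left out.

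spp-12 encodes an antimicrobial saposin-like protein made in pharyngeal neurons. Its 3-day controls read 4.89, 4.95 and 4.92, just under the log2 minimum of 5. The 0.2 mM HF arrays read 5.84, 5.76 and 5.73, and the 2.0 mM arrays read 6.01, 6.17 and 6.33. Both treated groups lay above all control arrays, by 0.86 ± 0.10 and 1.25 ± 0.10. The step between the doses was 0.39 ± 0.10. Of 5 tested pharynx markers 2 were called lower at 0.2 mM and 0 were called at 2.0 mM, with medians of -0.02 and -0.01. Of the 7 pharynx markers on the array 5 were under log2 5 in all arrays of each of these groups. Their medians thus rest mostly on low values and do not show a lack of change. Of 8 neuron markers 3 and 5 were called higher, with medians of 0.15 and 0.34. Their part in the spp-12 values was not tested.

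The caenopore genes moved less. spp-1 read 11.17, 11.11 and 11.10 in the 3-day controls, 11.57, 11.56 and 11.58 at 0.2 mM HF, and 11.59, 11.65 and 11.68 at 2.0 mM. Treated and control arrays did not overlap. The changes were 0.44 ± 0.06 and 0.51 ± 0.06, and the step of 0.07 ± 0.06 between the doses was not called. The spp-5/T08A9.13 probe set changed by 0.32 ± 0.05 and 0.39 ± 0.05, and that of spp-2/spp-3 by 0.35 ± 0.08 and 0.53 ± 0.08.

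spp-10 encodes a longer protein resembling the mammalian saposin precursor. Its 3 probe sets changed by 0.12 ± 0.07, 0.28 ± 0.06 and 0.40 ± 0.06 at 0.2 mM HF, the first of these not called. At 2.0 mM they changed by 0.24 ± 0.07, 0.37 ± 0.06 and 0.37 ± 0.06, all called. The probe sets of this gene thus differed in size but not in direction. spp-14 hardly moved, with changes of 0.07 ± 0.05 and 0.06 ± 0.05 and overlapping arrays. spp-9/spp-21 stayed between 2.15 and 2.17 in all 9 of these arrays, where values have no order.

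The intestine markers, genes that mark the tissue where caenopores are made, were higher in the same worms. At 3 days 12 of 14 tested intestine markers were called higher at each HF dose, with medians of 0.60 and 0.67. Their summed signal was 14.81 to 14.89 on the log2 scale in the controls, 15.26 to 15.31 at 0.2 mM and 15.36 to 15.41 at 2.0 mM. Of the 16 markers 2 were under log2 5 in all arrays of each of these groups. Over the same arrays 15 and 14 of 15 oocyte and germ line markers were called lower, and the body wall muscle markers were called higher in 8 of 10 at both doses. The part of these shifts in the spp changes was not tested, and in RNA from whole animals more cells of a type cannot be told apart from more RNA per cell.

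**Figure D2:**
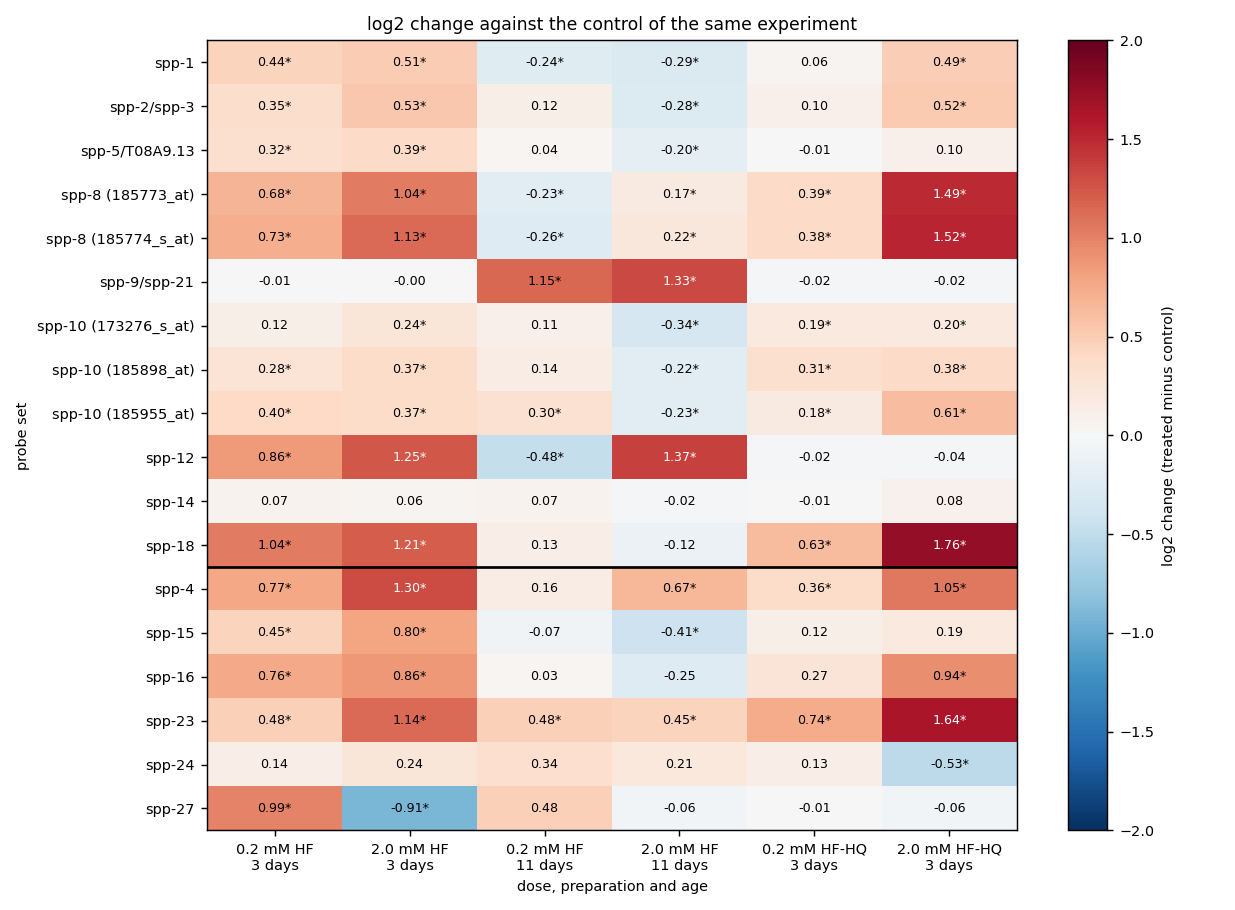
Log2 change of the 18 tested spp probe sets against the control of the same experiment, for each dose, preparation and age, with an asterisk where the adjusted p was under 0.05. The black line separates the 12 listed probe sets above from the 6 other spp probe sets below. Among the listed probe sets no fall is called in the 3-day columns, while called changes of both directions appear at 11 days. Below the line the called falls are spp-27 and spp-24 at 3 days and spp-15 at 11 days.

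At 11 days the listed probe sets were called in both directions with HF. At 0.2 mM 2 of the 12 probe sets were called higher and 4 lower, where 3.22% and 0.784% of all tested probe sets were called in these directions, and the median was 0.09 against 0.02 overall. At 2.0 mM 4 were called higher and 6 lower, beside 13.4% and 14.8% of all probe sets. The median was -0.16 against -0.01. The higher calls at both doses include spp-9/spp-21, which passed the filter through treated 11-day arrays alone, so its rise supports nothing. The lower calls at 2.0 mM include every spp-10 probe set, so they are not all separate genes.

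spp-12 went in opposite directions at the 2 doses. Its 11-day controls read 6.10, 6.11 and 5.78, the 0.2 mM arrays 5.51, 5.57 and 5.47, and the 2.0 mM arrays 7.09, 7.46 and 7.56. The low dose lay below all controls and the high dose above them. The changes were -0.48 ± 0.10 and 1.37 ± 0.10, and the 2 doses differed by 1.85 ± 0.10, a 3.62-fold difference. The SD between arrays was 0.19 in the controls, 0.05 at 0.2 mM and 0.25 at 2.0 mM. The pooled spread behind the SE includes HF-HQ arrays at the floor, so the SE is too small for the 2.0 mM change. The fall at 0.2 mM was not called when only the arrays of that experiment were fitted. Pharynx markers in the same comparisons gave 0 of 5 called at 0.2 mM and 1 of 5 called lower at 2.0 mM, and neuron markers gave 0 of 8 called and 2 of 8 called lower. Of the 7 pharynx markers on the array 5 were under log2 5 in all arrays of each 11-day group. The pharynx counts thus rest mostly on low values.

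spp-9 is known as a gene repressed by the BMP-like ligand DBL-1. The probe set that reads spp-9 and spp-21 was near the array's floor at 3 days and above it in the 11-day arrays. The 11-day controls read 4.07, 4.11 and 3.74. The 0.2 mM HF arrays read 5.28, 5.05 and 5.06, and the 2.0 mM arrays 5.29, 5.21 and 5.41. Both treated groups were above all controls while overlapping each other. The changes were 1.15 ± 0.07 and 1.33 ± 0.07, and the step of 0.18 ± 0.07 between doses was not called, although it was after quantile normalization (0.30). The SD between arrays was 0.20 in the 11-day controls, 0.13 at 0.2 mM and 0.10 at 2.0 mM. The pooled spread behind the SE includes 3-day and HF-HQ arrays at the floor, which hardly vary. These SEs, on which the calls rest, are therefore too small for the 11-day arrays. The controls lie under log2 5, the minimum of the filter on low values, so the folds of 2.22 and 2.51 set a measured level against a low one.

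spp-8 followed spp-12 in being lower at 0.2 mM and higher at 2.0 mM, with far smaller changes. On probe set 185773_at the 11-day controls read 7.73, 7.78 and 7.81, the 0.2 mM arrays 7.51, 7.57 and 7.56, and the 2.0 mM arrays 7.96, 8.03 and 7.85. The 3 groups did not overlap. The changes were -0.23 ± 0.06 and 0.17 ± 0.06, and those of probe set 185774_s_at were -0.26 ± 0.06 and 0.22 ± 0.06. Probe set 185773_at lost its call at 0.2 mM when any of 6 single arrays was left out (-0.25 to -0.21) and at 2.0 mM when any of 5 was (0.13 to 0.19), and 185774_s_at lost its own at 0.2 mM without the third control array (-0.23). The dose difference was called on both, 0.40 ± 0.06 and 0.48 ± 0.06.

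The caenopore genes and spp-10 were lower at 2.0 mM HF in old worms. spp-1 read 11.66, 11.74 and 11.71 in the 11-day controls, 11.43, 11.49 and 11.45 at 0.2 mM and 11.47, 11.38 and 11.40 at 2.0 mM. All treated arrays were below all controls, and the 2 doses overlapped. The changes were -0.24 ± 0.06 and -0.29 ± 0.06, the first not called once any of 4 single arrays was left out (-0.24 to -0.22). At 2.0 mM spp-5/T08A9.13 changed by -0.20 ± 0.05 and spp-2/spp-3 by -0.28 ± 0.08, the latter not called without the third 2.0 mM array (-0.17).

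All 3 spp-10 probe sets fell at 2.0 mM HF, by -0.34 ± 0.07, -0.22 ± 0.06 and -0.23 ± 0.06. On probe set 185955_at the 11-day controls read 9.84, 9.92 and 9.83, the 0.2 mM arrays 10.13, 10.21 and 10.14, and the 2.0 mM arrays 9.65, 9.61 and 9.63. This probe set was thus highest at the low dose and lowest at the high dose, with a rise of 0.30 ± 0.06 and a fall of 0.53 ± 0.06 from 0.2 to 2.0 mM. The other spp-10 probe sets changed by 0.11 ± 0.07 and 0.14 ± 0.06 at 0.2 mM, neither called. Between 0.2 and 2.0 mM, 3 listed probe sets were called higher and 6 lower, beside 12.2% and 18.3% of all. Among the 6, spp-18 differed by -0.26 ± 0.06, although neither of its changes against the control, 0.13 ± 0.06 and -0.12 ± 0.06, was called.

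Few intestine markers were called at 11 days: 1 of 14 was called higher at 0.2 mM, and 1 higher and 2 lower at 2.0 mM, with medians of 0.14 and 0.00. Their summed signal was 14.18 to 14.31 over the 9 arrays. Oocyte and germ line markers were called higher in 1 of 15 at 0.2 mM and in 14 of 15 at 2.0 mM, with a median of 0.37 at 2.0 mM. Whether that rise bears on the lower spp levels was not tested.

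**Figure D3:**
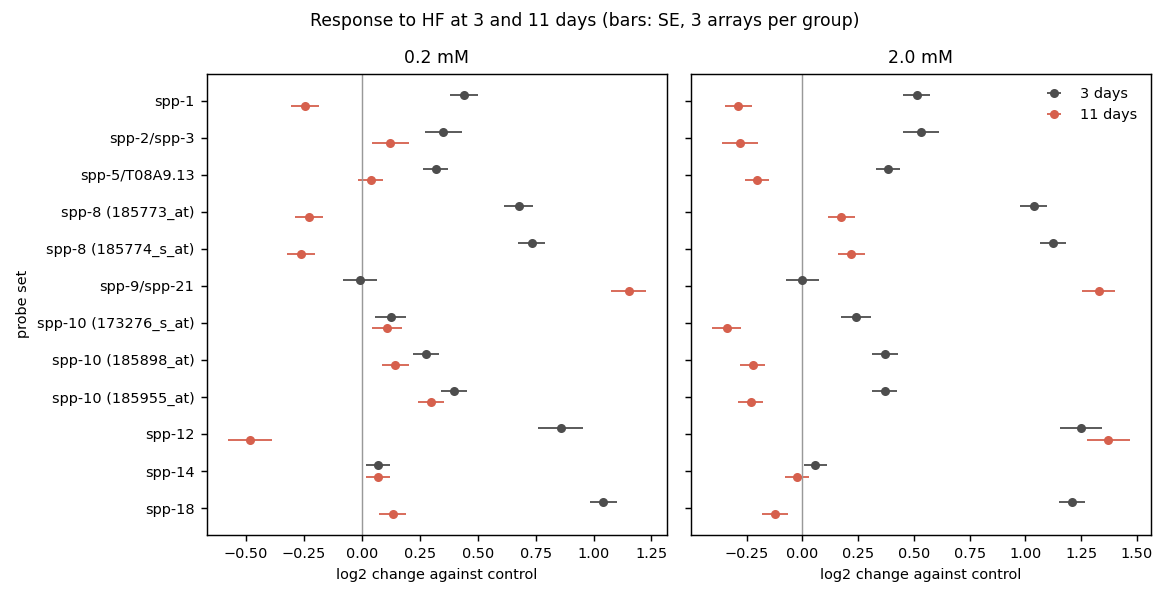
Log2 change against the control at 3 days (grey) and 11 days (red) of HF for the 12 tested listed probe sets, at 0.2 mM (left) and 2.0 mM (right). Bars are standard errors with 3 arrays per group. At 2.0 mM spp-12 has nearly the same change at both ages, spp-9/spp-21 has a change at 11 days and lies at the floor at 3 days, and spp-18 was called at 3 days and not at 11.

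The age difference in a response is the 11-day change minus the 3-day change. The 2 ages come from separate experiments, so age cannot be told apart from experiment. At 0.2 mM 1 of 12 probe sets was called higher and 6 lower in this difference, beside 26.1% and 16.6% of all probe sets. At 2.0 mM 1 was called higher and 9 lower, beside 32.7% and 29.3%. spp-18 had the greatest drop in response of the 12 at 2.0 mM, by -1.33 ± 0.08. The spp-12 response was lower by -1.34 ± 0.14 at 0.2 mM. At 2.0 mM its age difference was 0.12 ± 0.14, with a 95% confidence interval of -0.16 to 0.40. The pooled spread behind this interval includes HF-HQ arrays at the floor, so the interval may be too narrow. The probe set called higher at each dose was spp-9/spp-21, by 1.16 ± 0.10 and 1.33 ± 0.10. Its 3-day arrays lay at the floor and it was tested only because of treated 11-day arrays, so these values compare no 2 measured responses.

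Between the controls of 3 and 11 days the 2 experiments differ in scale, with a median over all probe sets of -0.24, or 0.04 after quantile normalization. Age and experiment cannot be told apart here, since each age has its own controls, arrays and scale. All 12 listed probe sets were called, 5 higher and 7 lower, beside 27.9% and 51.2% of all. After quantile normalization 8 were called higher and 2 lower, beside 40.7% and 35.8%. Under both scalings spp-12 (1.08 ± 0.10, quantile 1.35) and spp-1 (0.58 ± 0.06, quantile 1.14) were higher in the 11-day controls. So were spp-5/T08A9.13 and spp-10 on probe set 185955_at. spp-9/spp-21 is among those called higher, but both control groups lay under log2 5, so no size is given. spp-8 was lower under both, by -0.77 ± 0.06 and -0.95 ± 0.06, or -0.51 and -0.71 after quantile normalization. The direction of spp-2/spp-3, of spp-14 and of 2 spp-10 probe sets turned with the scaling, and spp-18 went from -0.56 to -0.04.

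Many of the listed genes were also higher with HF-HQ at 3 days. At 0.2 mM 6 of 12 probe sets were called higher and 0 lower, beside 15.9% and 14.3% of all, with a median of 0.14 against 0.05 overall. At 2.0 mM 8 were called higher and 0 lower, beside 13.2% and 10.3%, with a median of 0.44 against -0.02. From 0.2 to 2.0 mM 6 were called higher and 0 lower, beside 17.5% and 15.7%.

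spp-18 read 11.55, 11.40 and 11.26 in the HF-HQ controls, 12.01, 12.08 and 12.02 at 0.2 mM and 13.23, 13.09 and 13.18 at 2.0 mM. The groups did not overlap and the larger step was the second. The changes were 0.63 ± 0.06 and 1.76 ± 0.06, the latter 3.40-fold, with 1.13 ± 0.06 between the doses. spp-8 on probe set 185774_s_at read 10.48, 10.21 and 10.25 in the controls, 10.64, 10.72 and 10.72 at 0.2 mM and 11.83, 11.87 and 11.79 at 2.0 mM. Again the doses were ordered without overlap. Its changes were 0.38 ± 0.06 and 1.52 ± 0.06, the latter 2.86-fold, and the second probe set gave 0.39 ± 0.06 and 1.49 ± 0.06.

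spp-1 responded to HF-HQ only at the high dose. Its controls read 11.33, 11.39 and 11.22, the 0.2 mM arrays 11.21, 11.42 and 11.49, and the 2.0 mM arrays 11.74, 11.82 and 11.85. The low dose overlapped the controls and the high dose lay above both. The changes were 0.06 ± 0.06, not called, and 0.49 ± 0.06, with a called step of 0.43 ± 0.06 between the doses. spp-2/spp-3 had the same form, with 0.10 ± 0.08, not called, 0.52 ± 0.08, and a called step of 0.42 ± 0.08. spp-5/T08A9.13 was called at neither dose (-0.01 ± 0.05 and 0.10 ± 0.05), nor was spp-14 (-0.01 ± 0.05 and 0.08 ± 0.05).

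The spp-10 probe sets changed by 0.19 ± 0.07, 0.31 ± 0.06 and 0.18 ± 0.06 at 0.2 mM HF-HQ and by 0.20 ± 0.07, 0.38 ± 0.06 and 0.61 ± 0.06 at 2.0 mM. The first of them lost its call in 3 of 6 fits that left out an array at 0.2 mM (0.13 to 0.20) and in 5 of 6 at 2.0 mM (0.14 to 0.21), and the third in 3 of 6 at 0.2 mM (0.14 to 0.18). spp-12 lay between 2.15 and 2.22 in all 9 HF-HQ arrays and spp-9/spp-21 between 1.99 and 2.04, so a response of these genes to HF-HQ was not measurable. In the same worms 3 of 14 intestine markers were called higher at 0.2 mM, and 9 higher and 2 lower at 2.0 mM. Their summed signal was 15.91 to 16.02 in the controls, 16.05 to 16.14 at 0.2 mM and 16.46 to 16.49 at 2.0 mM, and its part in the spp values was not tested. Of 15 oocyte and germ line markers 1 was called higher and 8 lower at 0.2 mM, and 5 lower at 2.0 mM. Pharynx markers were called higher in 3 of 5 at both doses, and neuron markers in 3 and 4 of 8. Of 10 body wall muscle markers 2 were called higher at 0.2 mM and 1 lower at 2.0 mM.

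**Figure D4:**
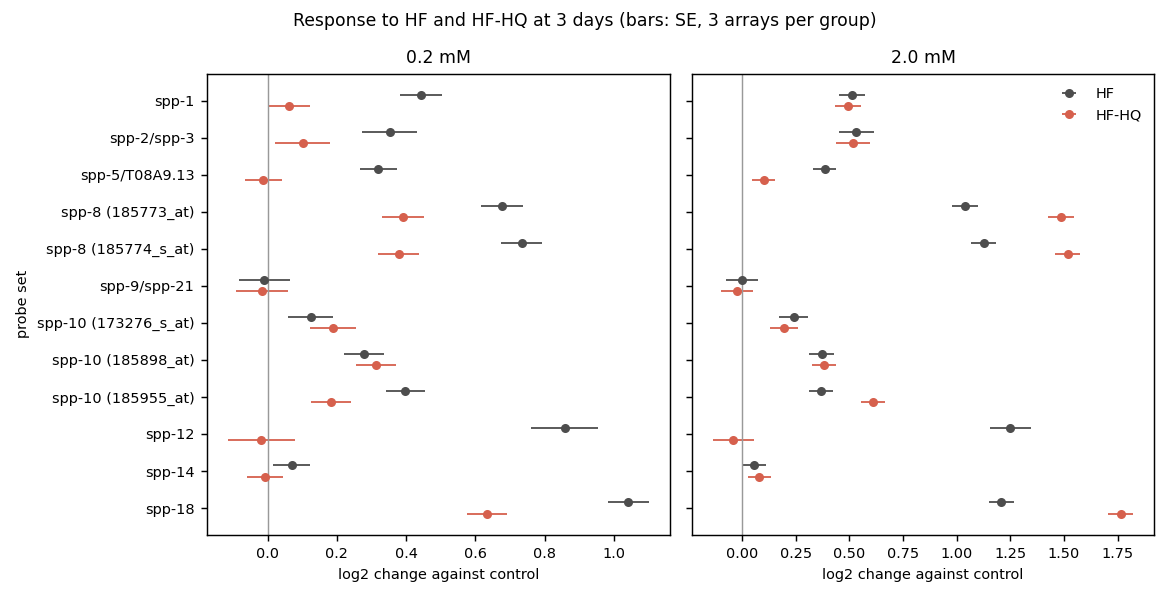
Log2 change against the control at 3 days for HF (grey) and HF-HQ (red), at 0.2 mM (left) and 2.0 mM (right), for the 12 tested listed probe sets. Bars are standard errors with 3 arrays per group. At 0.2 mM the HF changes of spp-18, spp-8 and spp-1 are greater, and at 2.0 mM the HF-HQ changes of spp-18 and spp-8 are greater.

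The preparation difference is the HF-HQ change minus the HF change at the same dose and age. At 0.2 mM 7 of the 12 were called lower and 0 higher, beside 15.8% and 24.4% of all probe sets. At 2.0 mM 4 were called higher and 2 lower, beside 27.6% and 20.6%. The counts at 2.0 mM are near the shares over all probe sets. spp-18 differed by -0.41 ± 0.08 at 0.2 mM and by 0.56 ± 0.08 at 2.0 mM. spp-8 differed by -0.36 ± 0.08 and 0.39 ± 0.08 on probe set 185774_s_at and by -0.29 ± 0.09 and 0.45 ± 0.09 on the other.

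spp-1 responded less to HF-HQ at 0.2 mM, by -0.38 ± 0.09, while at 2.0 mM the difference was -0.02 ± 0.09 with a 95% confidence interval of -0.20 to 0.16. spp-5/T08A9.13 responded less to HF-HQ at both doses, by -0.33 ± 0.08 and -0.28 ± 0.08. For spp-2/spp-3 neither difference was called, with intervals of -0.49 to -0.02 at 0.2 mM and -0.25 to 0.22 at 2.0 mM. The differences of spp-12, -0.88 ± 0.14 and -1.29 ± 0.14, set an HF rise against HF-HQ values at the floor and compare no 2 measured responses. Preparation and experiment cannot be told apart here, since each preparation has its own controls, arrays and scale. After quantile normalization the controls of the 2 experiments differed by 0.05 in the median over all probe sets. On the deposited scale that difference was 1.65. Of the 12 listed probe sets 10 were called higher and 1 lower in the HF-HQ controls as deposited, beside 89.9% and 6.76% of all, and 2 higher and 9 lower after quantile normalization, beside 43.5% and 39.6%. The order of most listed probe sets between these controls thus turned with the scaling. Probe sets 173276_s_at and 185898_at of spp-10 stayed higher in the HF-HQ controls. spp-12 stayed lower there, with its HF-HQ arrays at the floor.

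Of the other spp genes, 6 of 14 probe sets were tested, and these were not in the list. They too were chosen with earlier results of these data known, so their adjusted p-values are descriptions. At 2.0 mM HF and 3 days 4 of the 6 were called higher and 1 lower, beside 3106 and 3650 of all 11102. spp-4, which lies beside spp-5, read 9.38, 9.36 and 9.35 in the controls and 10.67, 10.60 and 10.73 at 2.0 mM. The groups were wide apart, with a change of 1.30 ± 0.08 (adjusted p = 7.8e-12). spp-23 changed by 1.14 ± 0.08 (adjusted p = 4.8e-11), spp-16 by 0.86 ± 0.12 (adjusted p = 1.6e-06) and spp-15 by 0.80 ± 0.09 (adjusted p = 5.4e-08). At 0.2 mM these 4 genes and spp-27 were called higher, by 0.45 to 0.99, and spp-24 was not called at either dose at 3 days.

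spp-27 reversed between the HF doses. It read 5.23, 5.19 and 5.26 in the 3-day controls, 6.50, 6.20 and 5.94 at 0.2 mM and 4.47, 4.67 and 3.80 at 2.0 mM. No group overlapped another. The changes were 0.99 ± 0.15 (adjusted p = 8e-06) and -0.91 ± 0.15 (adjusted p = 1.8e-05). The SD between arrays was 0.03 in the controls, 0.28 at 0.2 mM and 0.46 at 2.0 mM. The pooled spread behind the SE includes HF-HQ arrays at the floor. The SE and adjusted p are therefore too small for the 2.0 mM change. The sperm markers had the same dose order as spp-27. At 0.2 mM 5 of 5 tested sperm markers were called higher, with a median of 0.85. At 2.0 mM 5 of 5 were called lower, with a median of -1.21. Their summed signal was 8.49 to 8.59 in the controls, 9.31 to 9.43 at 0.2 mM and 7.11 to 7.41 at 2.0 mM. spp-27 was also at 2.30 to 2.39 in HF-HQ worms, where all 9 sperm markers on the array were under log2 5, but it read 4.93 to 5.78 at 11 days, where all 9 were under it too. The part of sperm RNA in the spp-27 signal was not tested.

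spp-4 and spp-23 were called higher at 2.0 mM in all 3 experiments. At 11 days spp-4 changed by 0.67 ± 0.08 (adjusted p = 1.8e-06) and spp-23 by 0.45 ± 0.08 (adjusted p = 0.00014), and spp-15 fell by 0.41 (adjusted p = 0.0011). At 2.0 mM HF-HQ spp-23 changed by 1.64 ± 0.08 (adjusted p = 1.1e-13), spp-4 by 1.05 ± 0.08 (adjusted p = 3.7e-10) and spp-16 by 0.94 ± 0.12 (adjusted p = 1.7e-06), while spp-24 fell by 0.53 (adjusted p = 0.002). The fall of spp-24 was not called when only the arrays of that experiment were fitted. The preparation difference at 2.0 mM was 0.51 ± 0.11 for spp-23 (adjusted p = 0.0005) and -0.25 ± 0.11 for spp-4 (adjusted p = 0.06), the latter called without either of 2 single HF-HQ arrays (-0.30 and -0.32) and at -0.09 after quantile normalization. spp-31 was too low for the test, yet it read 2.91, 2.76 and 3.14 in the HF-HQ controls and 4.73, 5.13 and 5.27 at 2.0 mM. The 7 other untested probe sets, spp-6, spp-7, spp-11, spp-13, spp-19, spp-22/ZK867.2 and spp-30/twk-44, exceeded log2 5 in 0 arrays.

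Saposins work with sphingolipid-degrading enzymes in mammals, and 7 of 12 listed worm genes for such enzymes were tested. This list was drawn up with earlier results of these data known, so its adjusted p-values are descriptions. Values of asah-1 where it was not the largest called change were added after they were seen. At 2.0 mM all 7 were called higher at 3 days with HF and all 7 with HF-HQ, beside 3106 of the 11102 and 13.2% of all probe sets called higher, with medians of 0.77 and 0.89. At 0.2 mM 4 were called higher with HF and 1 with HF-HQ, and 0 lower. Of all 11102 probe sets 2887 were called higher and 3650 lower at 0.2 mM HF. At 0.2 mM HF-HQ the shares were 15.9% and 14.3%, so the HF-HQ count of higher calls is near its share. asah-1, which encodes an acid ceramidase, changed by 1.55 ± 0.06 at 0.2 mM HF (adjusted p = 7.3e-14) and 2.22 ± 0.06 at 2.0 mM (adjusted p = 8.7e-17). With 2.0 mM HF-HQ asm-3, an acid sphingomyelinase gene, changed by 3.36 ± 0.15 (adjusted p = 7.2e-14) and asah-1 by 2.45 ± 0.06 (adjusted p = 4.8e-18).

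At 11 days the sphingolipid enzyme genes gave 0 of 7 calls at 0.2 mM HF, and 2 higher and 1 lower at 2.0 mM. Over all probe sets 3.22% were called higher and 0.784% lower at 0.2 mM, and 13.4% and 14.8% at 2.0 mM. asah-1 changed by -0.20 ± 0.06 (adjusted p = 0.099) at 0.2 mM and by 0.73 ± 0.06 (adjusted p = 4.9e-08) at 2.0 mM. asm-3 changed by 0.74 ± 0.15 (adjusted p = 0.00098) and asah-2 fell by 0.24 (adjusted p = 0.043) at 2.0 mM.

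Of 21 listed genes of the pathways and factors known to act on intestinal defence genes, 17 were tested. Earlier results of these data were known when this list was made, so its adjusted p-values are descriptions as well. At 3 days 6 were called higher and 1 lower at 0.2 mM HF, 5 and 1 at 2.0 mM HF, 2 and 2 at 0.2 mM HF-HQ, and 5 and 1 at 2.0 mM HF-HQ. At 11 days 1 was called higher and 0 lower at 0.2 mM, and 2 and 3 at 2.0 mM. Of all 11102 probe sets 2887 and 3106 were called higher at the 2 HF doses at 3 days and 3650 lower at each, so the 2.0 mM HF count of higher calls is near that share. The shares called higher and lower were 15.9% and 14.3% at 0.2 mM HF-HQ, 13.2% and 10.3% at 2.0 mM HF-HQ, 3.22% and 0.784% at 0.2 mM HF and 11 days, and 13.4% and 14.8% at 2.0 mM HF and 11 days. The counts at 0.2 mM HF-HQ and at both HF doses at 11 days are near these shares too. The medians of the 17 at 3 days lay between 0.00 and 0.18. elt-2, the GATA factor that maintains intestinal identity, changed by 0.66 ± 0.13 and 0.61 ± 0.13 at the low and the high HF dose at 3 days (adjusted p = 0.00024 and 0.00042). With HF-HQ it changed by 0.78 ± 0.13 and 0.98 ± 0.13 (adjusted p = 0.00019 and 6.4e-06). At 11 days it changed by 0.61 ± 0.13 at 0.2 mM (adjusted p = 0.0077), and at 2.0 mM its difference of -0.18 ± 0.13 was not called (adjusted p = 0.33).

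pqm-1 encodes a zinc finger factor that works opposite DAF-16. It changed by 0.93 ± 0.09 at 0.2 mM HF and 3 days (adjusted p = 1.2e-08) and by 1.77 ± 0.09 at 2.0 mM HF-HQ (adjusted p = 3.6e-13), and it fell by 0.53 at 2.0 mM HF and 11 days (adjusted p = 0.00013). daf-16 itself changed by 0.31 ± 0.08 in that last comparison (adjusted p = 0.0046). atf-7, a transcription factor of the p38 immune pathway, fell by 0.47 and 0.42 at the 2 HF doses at 3 days (adjusted p = 0.00096 and 0.0023) and by 0.80 at 0.2 mM HF-HQ (adjusted p = 1.9e-05). At 2.0 mM HF-HQ its change of -0.05 ± 0.11 was not called (adjusted p = 0.83). Nor were its 11-day changes, 0.04 ± 0.11 at 0.2 mM HF (adjusted p = 0.96) and 0.28 ± 0.11 at 2.0 mM (adjusted p = 0.067). fshr-1, a receptor of intestinal immunity, fell by 0.26 at 2.0 mM HF-HQ (adjusted p = 0.016).

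Among the listed probe sets the spread around the experiment means was greatest for spp-12 (SD 0.56 over the 27 arrays), spp-18 (0.54) and spp-8 (0.49) and smallest for spp-14 (0.06). For these 3 genes the most similar profiles were sought over 27 arrays, as Pearson's r of deviations from the experiment mean. These correlations are descriptions: arrays of a group share their treatment, so r follows the group means, and the highest values were picked from all named probe sets. spp-8 was most like asah-1 (r = 0.98), a probe set of F09C8.1 (0.96) and the lysozyme gene ilys-3 (0.95). spp-18 was most like Y49E10.18 (0.98), another F09C8.1 probe set (0.97) and fat-6, a fatty acid desaturase gene (0.96). For spp-12 the values were lower, with the collagen gene col-119 (0.87), mdh-2 (0.86) and Y16B4A.2 (0.86). Its HF-HQ arrays all lie at the floor, between 2.15 and 2.22. Its r over 27 arrays therefore cannot be ranked against that of spp-8 or spp-18.

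Within the family, the 2 spp-8 probe sets had r = 0.99 with each other and 0.92 with spp-18. spp-8 on probe set 185774_s_at and spp-4 had r = 0.92, and spp-18 and spp-23 had 0.91. For spp-12 the values ran from -0.44 with a spp-10 probe set (173276_s_at) to 0.65 with spp-4, with 0.48 for spp-8 on 185774_s_at, 0.22 for spp-1 and 0.21 for spp-18. These values include its HF-HQ arrays at the floor, so low ones do not show a separate spp-12 profile.

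**Figure D5:**
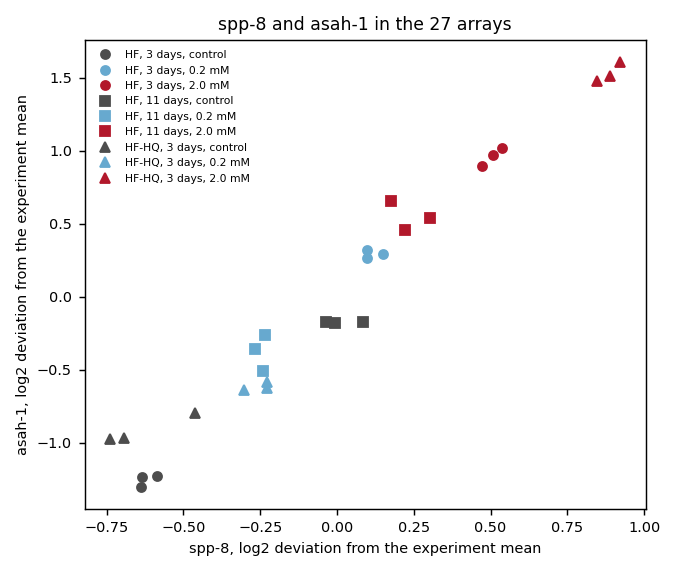
Log2 deviation from the experiment mean of spp-8 (probe set 185774_s_at) on the x axis and of asah-1 on the y axis, in each of the 27 arrays. Colour gives the dose and marker shape the experiment. The 2.0 mM arrays sit at the top right in all 3 experiments, and at 11 days the 0.2 mM arrays sit below their controls on both axes.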

How the data were processed

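Whole-worm RNA from 27 samples was hybridised to Affymetrix arrays, 1 sample per array. The deposited log2 values were made by the authors with GCRMA, per the submitters' processing notes (no version given); aligners and genome builds do not apply. The arrays of the 3 experiments have different distributions, so they were apparently normalized apart; the sources used here do not say. No detection calls or scanner files were used, so depth has no count here and the number of arrays limits the precision.

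The 77 array controls were left out of 22625 probe sets, and 11102 with log2 over 5 in at least 3 arrays were kept. Of these 10533 carry 1 gene symbol, 378 several and 191 none, from the platform annotation, which can be old. Changes came from limma 3.58.1 in R 4.3.3, with 1 mean per group, 15 contrasts and Benjamini-Hochberg adjustment over all tested probe sets, threshold 0.05. Figures were drawn with matplotlib 3.10.9. In simulated data for 2.0 mM HF at 3 days with 11102 probe sets, 71 of 100 true changes of 0.5 and 99 of 100 of 1 were recovered, with 7 false calls. Only those probe sets were changed there and the noise was independent, whereas 60.9% of probe sets were called in the real comparison. The simulated rates therefore do not carry over to the calls made here.

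The genes, the marker and pathway lists and the tests were chosen with earlier results of these data known. The text names all 10 listed genes and every other tested spp gene. From the sphingolipid and signalling lists it names the called gene with the largest change each way. It also names 3 similar genes for the 3 listed genes of greatest spread. asah-1 in further comparisons, spp-31, and the correlations within the family were added after values were seen. The values of elt-2 and atf-7 in further comparisons are outside this rule too. Alternatives were another scaling (median centring, quantile), other filters (none, log2 over 7), a variance trend, the arrays of the compared experiments alone, a replicate block and each array left out. Same-numbered arrays did not pair: 3 of 27 correlations of their deviations exceeded 0.1 and 16 were negative.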

Additional observations from a re-analysis of the deposited data

Results flagged for a closer look

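Several responses of the listed probe sets differed between ages or preparations by the test of the difference itself, the interaction term in limma. The genes were listed with these results known, so the values are descriptions. Ages and preparations come from separate experiments, so neither difference can be told apart from one between experiments. The age difference is the 11-day change minus the 3-day change to HF, on the log2 scale. At 0.2 mM it was -0.69 for spp-1, -1.34 for spp-12, -0.91 for spp-18, -0.28 for spp-5/T08A9.13, -0.90 and -0.996 for the 2 spp-8 probe sets, and 1.16 for spp-9/spp-21. At 2.0 mM it was -0.80 for spp-1, -0.58, -0.60 and -0.60 for the 3 spp-10 probe sets, -1.33 for spp-18, -0.81 for spp-2/spp-3, -0.59 for spp-5/T08A9.13, -0.86 and -0.91 for spp-8, and 1.33 for spp-9/spp-21.

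The preparation difference is the HF-HQ change minus the HF change at 3 days. At 0.2 mM it was -0.38 for spp-1, -0.21 for spp-10 on probe set 185955_at, -0.88 for spp-12, -0.41 for spp-18, -0.33 for spp-5/T08A9.13, and -0.29 and -0.36 for spp-8. At 2.0 mM it was 0.24 for spp-10 on probe set 185955_at, -1.29 for spp-12, 0.56 for spp-18, -0.28 for spp-5/T08A9.13, and 0.45 and 0.39 for spp-8. The spp-12 values rest on HF-HQ arrays at the floor, and the spp-9/spp-21 age differences on 3-day arrays at the floor. Of the spp-10 values, the 0.2 mM one was not called in most fits that left out 1 array of its groups (-0.22 to -0.17), nor the 2.0 mM one without the third 2.0 mM HF-HQ array (0.18).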

How the results depend on the processing

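The number called among the 12, both directions together, was within 1.5 times its value under the other scalings, filters and variance settings. The split by direction turned with quantile normalization in the comparisons between controls, from 5 higher and 7 lower to 8 and 2 (11 against 3 days) and from 10 and 1 to 2 and 9 (HF-HQ against HF). With the arrays of the compared experiments alone the 2 counts of 6 at 0.2 mM (HF at 11 days, HF-HQ) became 4. Leaving out single arrays gave 3 to 5 calls for 0.2 mM HF at 11 days, 4 to 6 for 0.2 mM HF-HQ, 3 for 2.0 against 0.2 mM HF at 3 days and 9 for 2.0 mM HF at 11 days. The replicate block gave 5 calls in place of 6 for 0.2 mM HF at 11 days and for 0.2 mM HF-HQ, 3 in place of 4 for 2.0 against 0.2 mM HF at 3 days and 7 in place of 8 for 2.0 mM HF-HQ; the numbers do not pair the arrays, so no pairing is implied.

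Among called changes, directions turned in the comparisons between controls of 2 experiments and in no other. Small changes that were not called also turned within experiments, such as spp-1 from 0.2 to 2.0 mM HF at 11 days (-0.04, or 0.03 after quantile normalization). The cause was not tested beyond the scaling itself. Against the 3-day controls, the 11-day controls after quantile normalization gave 0.041 (173276_s_at) and 0.24 (185898_at) for spp-10, 0.27 for spp-2/spp-3 and 0.28 for spp-14. HF-HQ against HF controls, positive as deposited, gave -1.31 for spp-1, -1.05 for spp-18, -0.19 for spp-5/T08A9.13, -0.90 for spp-2/spp-3, -1.09 for spp-4, -0.47 and -0.39 for spp-8, -0.85 for spp-10 (185955_at) and -0.41 for spp-14 after quantile normalization. Median centring gave -0.36 for spp-1 and -0.089 for spp-18.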
